A study of Mus musculus with 3 samples.

Results

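A set of 10 genes that regulate or mark the mouse trophoblast lineage is described here across uterine sections of pregnancy day 7.5: the transcription factors Hand1, Ascl2, Tfap2c, Gata2, Gata3, Rhox6 and Rhox9, and the markers Plac1, Plet1 and Tpbpa. They are 10 of the 32285 genes of each matrix, chosen by symbol, and all 10 were counted in all 3 libraries. The sections came from the uterus of females raised on normal chow to 8 weeks of age and mated with stud males, with no further treatment, mutation or control group. RNA was captured on Visium slides, on which each barcoded spot is a small patch of tissue that can hold several cells of different types. The library of replicate 1,2 holds sections of biological replicates 1 and 2 in a single matrix, and the others hold replicate 3 and replicate 4, so each value below has n = 3 libraries at most. A p-value sets a difference between groups of spots within libraries against how far such differences vary over these libraries. The estimate of that spread is shared by all groups of spots in a fit.

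The trophoblast is the outer layer of the embryo and builds the fetal side of the placenta. After implantation its diploid precursors form the ectoplacental cone, from which spongiotrophoblast cells arise, while cells at the edge leave the cell cycle, replicate their DNA without dividing and become giant cells that secrete placental lactogens (the Prl3d genes and Prl3b1) and border the maternal decidua. Hand1 is a basic helix-loop-helix factor that drives giant cell formation, and Ascl2 is an imprinted factor of the same class that is needed to maintain cone and spongiotrophoblast precursors. Tfap2c, Gata2 and Gata3 act earlier in setting up the lineage and in turning on placental lactogen genes, Rhox6 and Rhox9 are X-linked homeobox genes expressed in the placenta, Plac1 encodes a membrane-associated placental protein, Plet1 a surface protein of extraembryonic ectoderm and trophoblast, and Tpbpa a secreted protein that is the standard marker of cone and spongiotrophoblast.

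Sequence upstream of the RefSeq start site was found for 6 of the 10 genes (Ascl2, Plac1, Plet1, Tpbpa, Gata3 and Gata2), in build GRCm38.p6. It was not found for Hand1, Tfap2c, Rhox6 and Rhox9. The windows of 4 genes are shown because these genes differed between giant cell and cone marker spots, Plac1 and Plet1 in one direction and Ascl2 and Tpbpa in the other. Each is written 5′ to 3′ on the strand of the gene and stops before the first annotated exon base. Capitals mark matches on either strand to 3 words. The word of basic helix-loop-helix factors such as Hand1 and Ascl2 is CANNTG. The word of Tfap2 factors is GCCNNNGGC. The word of Gata2, Gata3 and their relatives is GATAA. A match of the last on the other strand reads TTATC. The marked matches did not overlap each other.
Ascl2 (chr7:142969265-142969514, minus strand): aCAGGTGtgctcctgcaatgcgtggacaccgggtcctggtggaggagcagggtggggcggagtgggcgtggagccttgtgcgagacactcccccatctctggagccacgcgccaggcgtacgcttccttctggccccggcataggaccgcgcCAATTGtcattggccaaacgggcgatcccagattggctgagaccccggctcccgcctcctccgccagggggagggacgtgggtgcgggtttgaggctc
Plac1, distal start (chrX:53240112-53240360, minus strand): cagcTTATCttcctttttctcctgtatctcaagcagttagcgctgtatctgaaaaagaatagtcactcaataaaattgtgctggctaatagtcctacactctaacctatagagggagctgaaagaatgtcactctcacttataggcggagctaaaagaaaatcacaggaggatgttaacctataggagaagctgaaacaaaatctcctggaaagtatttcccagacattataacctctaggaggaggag
Plet1 (chr9:50494275-50494524, plus strand): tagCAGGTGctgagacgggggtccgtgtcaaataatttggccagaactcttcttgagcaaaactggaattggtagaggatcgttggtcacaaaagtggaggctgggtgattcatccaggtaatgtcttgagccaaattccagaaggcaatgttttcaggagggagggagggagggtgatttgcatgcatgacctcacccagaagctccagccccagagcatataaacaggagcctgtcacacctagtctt
Tpbpa (chr13:60941985-60942186, minus strand): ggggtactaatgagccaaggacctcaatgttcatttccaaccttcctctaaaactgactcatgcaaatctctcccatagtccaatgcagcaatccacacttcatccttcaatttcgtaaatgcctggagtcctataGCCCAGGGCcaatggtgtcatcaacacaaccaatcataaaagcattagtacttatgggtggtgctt
The Ascl2 window held 2 matches to CANNTG and the Plet1 window held 1, against a match in 66.2% of 32841 windows of 250 bases. The distal Plac1 window held 1 match to GATAA, a word found in 22.6% of windows. A second, proximal Plac1 window is not shown. It held no match in the 125 bases before the first annotated exon base, and 2 matches to CANNTG in its full 250 bases. The Tpbpa window held 1 match to GCCNNNGGC, found in 13.7% of windows, and the Gata3 window held 3. A match is a description of these letters and not a binding site.

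The 3 libraries differed in depth. Replicate 1,2 held 1773 spots with at least 1000 unique molecular identifiers (UMIs, each standing for 1 captured transcript) and a median of 8038 UMIs per spot, against 1080 and 1086 spots with medians of 26543 and 28286 in replicates 3 and 4. The libraries shared 676 to 825 spot barcodes, which on these slides name positions and not cells. Levels are given as CPM, the UMIs of a gene over all UMIs of the spots of a region, scaled to a total of 1000000. Fewer cells of a type and less RNA per cell cannot be told apart in spots. Where a gene had no UMI, the limit given is that of 3 counts, and such limits and all intervals cover counting error only. Over all spots, Hand1 held 77, 730 and 887 UMIs in replicates 1,2, 3 and 4, and Ascl2 held 15, 97 and 334, so Ascl2 in replicate 1,2 was close to the limit of detection. Plet1 (764, 2438 and 3420 UMIs) and Gata2 (1378, 2042 and 2770 UMIs) had the most UMIs. The authors' counting is not known to use strand. In GRCm38 with GENCODE annotation, 8 of the 10 genes overlapped no other gene. Plet1 overlaps the antisense gene Plet1os, and Gata3 overlaps 3 genes (Gm13256, 4930412O13Rik and 9230102O04Rik), so their counts could hold reads of those genes. The last 300 bases of the Rhox6 and Rhox9 transcripts shared none of 251 stretches of 50 bases, nor did those of Gata2 and Gata3, Hand1 and Hand2, or Tpbpa and Tpbpb.

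In 1 small region of the sections, 9 of the 10 genes were higher than elsewhere. Spots were grouped into 14 regions by the expression of a random set of genes that held none of the 10 and none of the marker genes, and 13 regions were each compared with the mean of the others (edgeR quasi-likelihood test with Benjamini-Hochberg adjustment, library as a block, a call needing an adjusted p below 0.05 plus a log2 fold change whose size was 1 or more). Region 13, led by Pfpl, Sfn and Homer2, held 39, 40 and 50 spots of replicates 1,2, 3 and 4, and 2.27%, 4.15% and 6.09% of their UMIs. The giant cell lactogens Prl3d1, Prl3d2, Prl3d3 and Prl3b1 summed to 3109, 2216 and 1390 CPM there, the highest of any region in each library. Region 13 was picked for the later comparisons by the mean of this level over libraries, so its high level is not a separate result. In it 9 of the 10 genes were called higher, beside 13.9% of the 6642 genes tested, and Gata3 was not. The median log2 fold change of the 10 genes was 5.80, against -0.05 over all genes tested.

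Spots of region 13 also held RNA of neighbouring tissues. All 5 red cell genes were called higher there and summed to 8031, 7955 and 9813 CPM, 10 of 14 visceral endoderm genes were higher (519, 15.03 and 631 CPM), and of 15 decidual genes 6 were higher and 6 lower (61957, 13662 and 20956 CPM). In replicate 3 the visceral endoderm sum was below that of regions 9 and 10, at 73.1 and 157 CPM. The part of neighbouring tissues in the levels of the members was not tested. Without replicate 4 the count of members called was 8, because Ascl2 then had too few UMIs to be tested, and the other 10 alternatives tried for region 13 gave 9.

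Hand1 was measured at 149, 600 and 355 CPM in region 13 (mean 368 ± 226, SD, n = 3). Region 13 held 74.0%, 93.0% and 72.9% of the Hand1 UMIs, and the gene stood 7.74 ± 0.16 (log2, SE) above the mean of the other regions (edgeR adjusted p = 1.05e-30). In region 8, a region of natural killer cell genes, Hand1 was counted 0, 0 and 1 times, which is 0.521 CPM in replicate 4 and allows up to 2.52 and 0.971 CPM in the others. Region 14 held 10.4% of the Hand1 UMIs of replicate 1,2 and 15.7% of those of replicate 4, and region 2 held 10.4%, 4.38% and 7.44%. Region 8 was named after the levels were seen and was next to lowest by mean Hand1 level. Its lack of overlap with region 13 follows from that choice.

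Ascl2 was measured at 0, 42.4 and 138 CPM in region 13. The 0 in replicate 1,2 covers 383376 UMIs and allows up to 7.83 CPM, below the level of both other libraries. Region 13 held 49.5% and 75.4% of the Ascl2 UMIs of replicates 3 and 4, and the 15 UMIs of replicate 1,2 lay elsewhere, each alone in its spot. The fold change of 5.09 ± 0.28 (edgeR adjusted p = 2.11e-17) therefore rests on 2 of 3 libraries.

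Rhox6 stood at 185, 252 and 74.0 CPM in region 13 and Rhox9 at 80.9, 160 and 36.2 CPM. For both genes replicate 3 was highest and replicate 4 lowest, whereas Ascl2 and Tpbpa were highest in replicate 4. Their fold changes were 6.55 ± 0.23 and 6.47 ± 0.24.

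The surface marker Plet1 was measured at 1098, 1678 and 1382 CPM in region 13, where every spot of every library held at least 1 of its UMIs. Plac1 was measured at 310, 670 and 595 CPM. Region 13 held 55.1% to 77.9% of the Plet1 UMIs and 64.3% to 85.9% of those of Plac1, and both genes had a fold change of 7.04, with a standard error of 0.17 for Plet1 and 0.13 for Plac1. Region 14 was next for both genes in replicates 1,2 and 4, as the plot of levels by region shows.

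**Figure D1:**
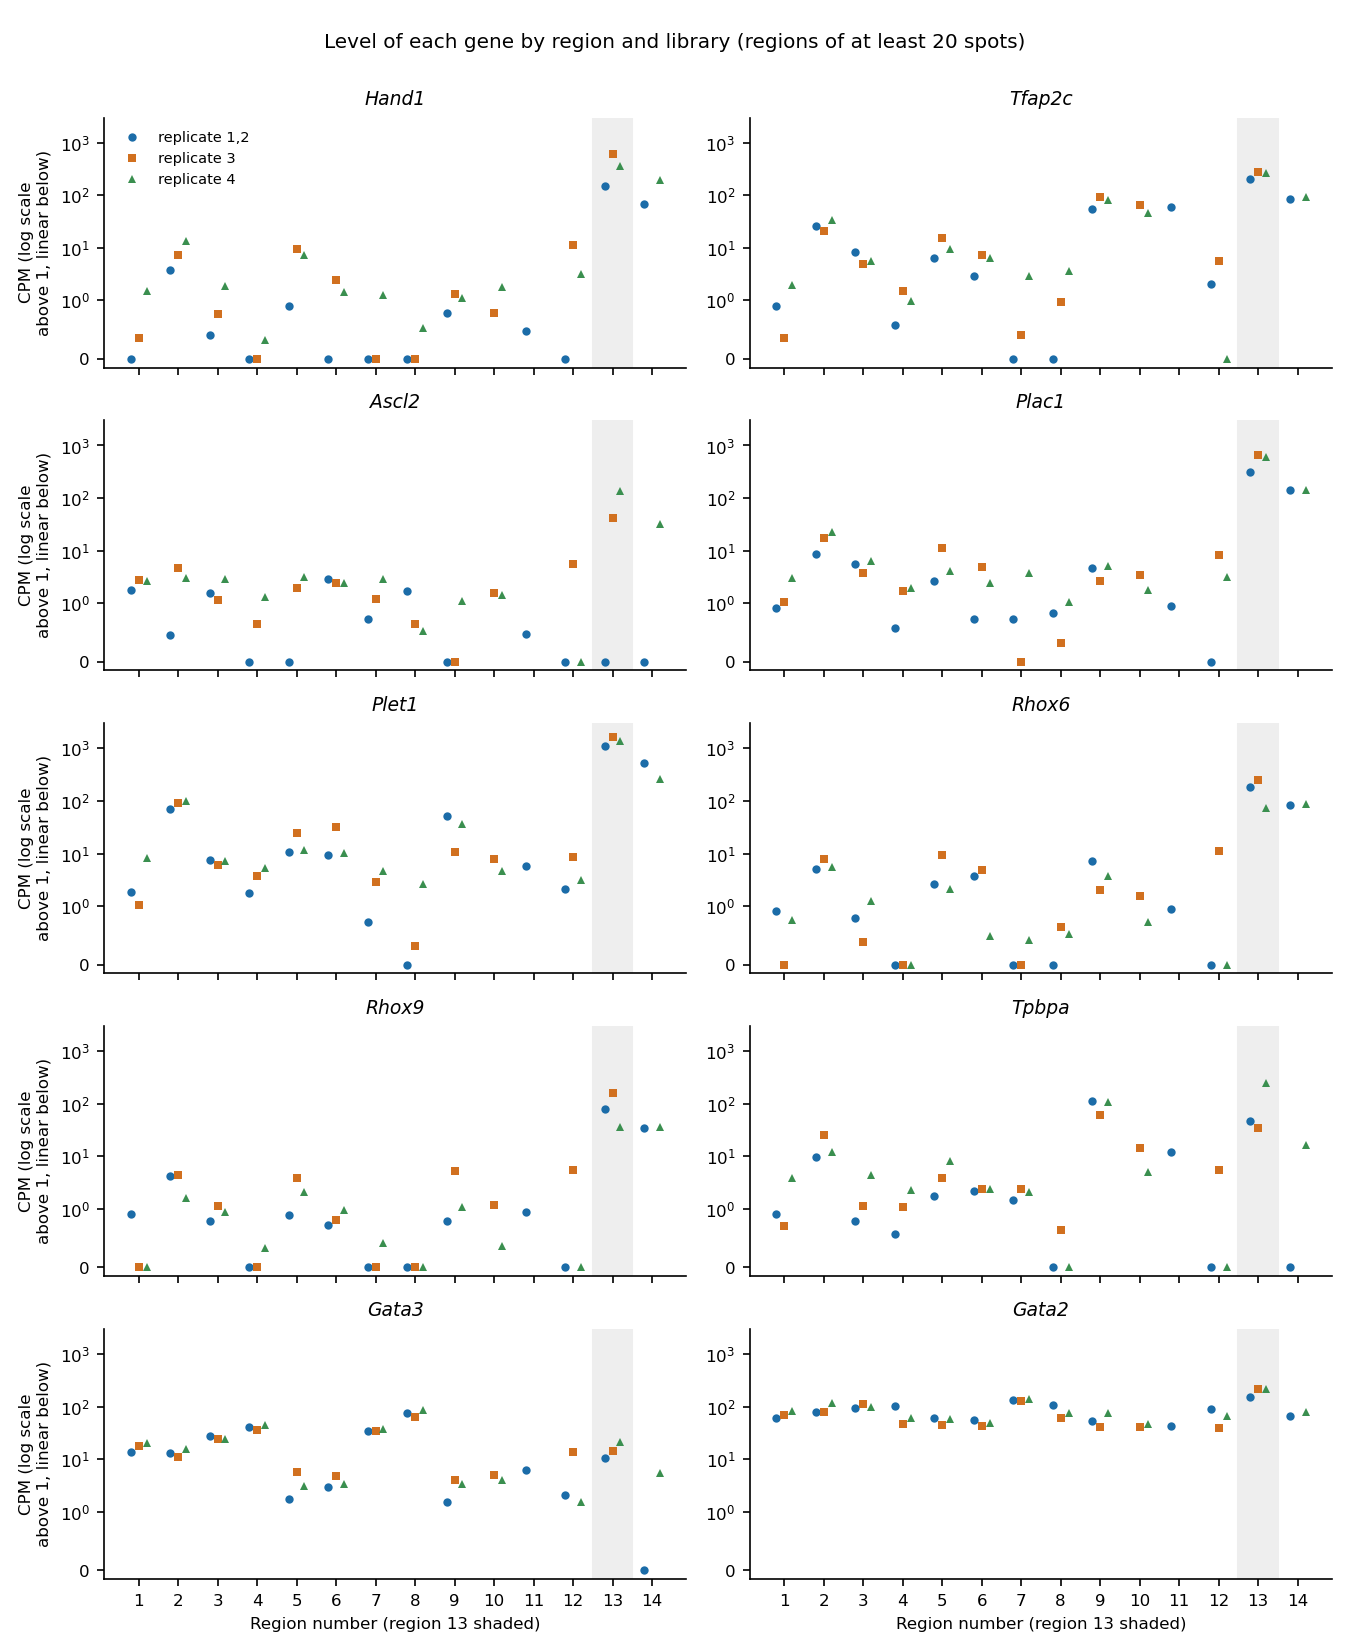
Level (CPM, log scale above 1 and linear below) of each of the 10 genes in regions of at least 20 spots, by region number; points are the 3 libraries and region 13 is shaded. Hand1, Plac1 and Plet1 peak in region 13 in all 3 libraries, Tpbpa has a further peak in region 9, Gata3 is highest in region 8, and Gata2 is above 30 CPM in every region shown.

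Tpbpa, the cone marker, had its UMIs in more than 1 place. It was measured at 111, 61.7 and 109 CPM in region 9 and at 47.0, 35.4 and 244 CPM in region 13, so region 9 was the higher in replicates 1,2 and 3 and region 13 in replicate 4. Region 9 (led by Kng2, Cbln1 and Tnnc1) is rich in decidual genes: Prl8a2, a prolactin-family hormone of the decidua, reached 159226, 53808 and 81750 CPM there. Of the Tpbpa UMIs, region 9 held 65.3%, 30.1% and 33.6% and region 13 held 8.33%, 13.1% and 50.7%, and in replicate 3 region 2 held 36.3%. In replicate 4 a single spot held 90 of the 877 Tpbpa UMIs. The 10 spots richest in Tpbpa all lay in region 9 in replicate 1,2, 6 of 10 lay in region 2 in replicate 3, and in replicate 4 they were divided evenly, 5 and 5, between regions 9 and 13. Tpbpa was called higher in region 9 (5.24 ± 0.32, edgeR adjusted p = 1.25e-16) as in region 13 (4.81 ± 0.33, edgeR adjusted p = 9.83e-15). Whether Tpbpa in region 9 comes from trophoblast cells or from the decidua was not tested. The giant cell lactogens summed to 220, 8.05 and 112 CPM there.

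Tfap2c also had a level outside region 13. It was measured at 206, 278 and 265 CPM in region 13 (5.13 ± 0.15, edgeR adjusted p = 1.35e-25), at 55.1, 90.6 and 80.5 CPM in region 9 and at 64.5 and 46.5 CPM in region 10 of replicates 3 and 4. Region 11, which had 220 spots in replicate 1,2 and few or none in the others, held 58.4 CPM. Region 13 held 21.1%, 41.9% and 42.6% of the Tfap2c UMIs. Tfap2c was called higher in region 9 (3.88 ± 0.18, edgeR adjusted p = 4.74e-20) and was the 1 member called higher in region 10 (2.90 ± 0.21), beside 8.33% of all genes. Both regions are rich in decidual RNA: the list of 15 decidual genes summed to 80895 to 200429 CPM in region 9 and to 39033 and 34308 CPM in region 10 of replicates 3 and 4.

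In region 9, 5 of the 10 genes were called higher, beside 14.9% of all genes tested: Tpbpa, Tfap2c, Plet1, Rhox6 and Rhox9. With the pooled other spots as the reference, Tpbpa (3.86) and Tfap2c (2.25) were the 2 members called higher, beside 11.4% of genes, and Plet1, Rhox6 and Rhox9 had log2 fold changes of -0.70, -0.49 and -0.57. Gata3 was called lower in region 9 (-1.36), beside 13.4% of genes. The call of Rhox6 was lost without replicate 1,2 and that of Rhox9 without replicate 3. In region 2 (led by Srd5a1, S100a8 and Mrgprg) 7 of the 10 genes were called higher, beside 14.8% of all genes, and 0 were against the pooled other spots. Plet1 in region 2 was measured at 70.3, 93.3 and 100.3 CPM and Hand1 at 3.70, 7.37 and 13.51 CPM, below region 13 in each library.

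Region 14 (led by Lin28a, Bex2 and Gldc) held 25 spots in replicate 1,2, 27 in replicate 4 and none in replicate 3. Apoa1, an apolipoprotein of the visceral endoderm, averaged 596 CPM there, and 14 of 14 visceral endoderm genes and 11 of 14 epiblast and mesoderm genes tested were called higher. Of the 10 members 7 were called higher, beside 12.8% of all genes tested. Hand1 stood at 68.0 and 194 CPM, Plac1 at 144 and 141 CPM, Plet1 at 527 and 259 CPM, and Rhox6 at 85.0 and 86.7 CPM, which in replicate 4 was above the 74.0 CPM of region 13. Tpbpa was counted 0 times in replicate 1,2, which allows up to 25.5 CPM, and stood at 16.8 CPM in replicate 4, so its fold change of 0.93 was not called. Ascl2 was at 0 in replicate 1,2, with the same limit, and at 32.1 CPM in replicate 4. Gata3 was called lower (-1.70), beside 15.2% of genes. The part of the embryo's own tissues in these levels was not tested.

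Gata3 had another pattern. It was highest in region 8 (led by Frem1, Trim2 and Trbc1), at 74.7, 64.1 and 85.4 CPM (mean 74.7 ± 10.7, SD, n = 3), and next in region 4, at 41.8, 35.9 and 44.5 CPM. In region 13 it was measured at 10.4, 14.1 and 21.4 CPM from 4, 16 and 39 UMIs, and none of its 10 richest spots lay in region 13 in any library. Gata3 was called higher in region 8 (2.66 ± 0.13, edgeR adjusted p = 2.73e-18), 4 (1.87), 7 (1.62) and 3 (1.31), and in region 13 its log2 fold change of 0.67 became -0.39 against the pooled other spots. It was the 1 member called higher in each of these regions, where 10.9%, 8.49%, 6.88% and 6.23% of all genes were. In regions 8 and 4, 7 members were called lower, beside 8.05% and 5.27% of genes. Gata3 lay between 24.4 and 85.4 CPM in the 4 regions, which did not overlap the 3 values of region 13. The 4 regions are those called higher, so this is not a separate result.

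Natural killer cell genes were also highest in regions 8 and 4. The list of 15 (perforin, granzymes and receptors) summed to 9704, 18679 and 18162 CPM in region 8 and 5771, 26040 and 14280 CPM in region 4, against 83.5, 666 and 151 CPM in region 13, where 2, 12 and 12 of the 15 had a UMI. The orders of the list and of Gata3 were not the same. In replicate 3 the list was higher in region 4 than in region 8 and Gata3 was lower there. In region 1, where Gata3 was not called higher (13.7, 18.2 and 20.4 CPM), the list summed to 882, 5560 and 4346 CPM. In regions 7 and 3, where Gata3 was called higher, it summed to 248, 2916 and 762 CPM and to 37.5, 866 and 241 CPM. All 14 tested genes of the list were called higher in region 8 and in region 4, with Gzma at 5.73, Gzmf at 5.76 and Prf1 at 5.83 (log2) in region 8. Among the genes most like Gata3 in their level across regions were Tagln2 (mean Pearson r 0.90 over the libraries, with 12 or 13 regions in each) and Kit (0.89). The part of natural killer cells in the Gata3 counts was not tested.

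Calls of lower level were spread over the other regions. In region 1 and in region 7, 4 members were called lower, beside 4.58% and 4.44% of genes. In regions 6, 10 and 12, 2 were, beside 1.7%, 8.19% and 9.56%, and in regions 3 and 5, 1 was, beside 5.98% and 4.11%. Gata2 was the 1 member called lower in no region, and the count of members lower in at least 1 region, 9, became 5 without replicate 3 or without replicate 4.

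**Figure D2:**
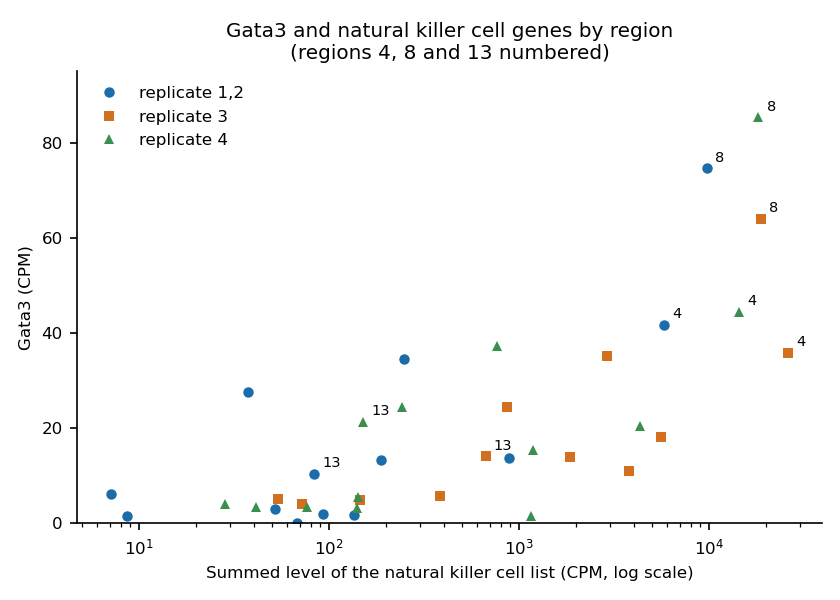
Gata3 level (CPM) against the summed level of 15 natural killer cell genes (CPM, log scale) in each region of at least 20 spots; points are regions of the 3 libraries. Region 8 has the highest Gata3 level of each library, and region 13 lies between 10.4 and 21.4 CPM.

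Gata2 was spread over the sections. It was measured at 151, 217 and 216 CPM in region 13 and at 30.8 to 142 CPM in every other region and library, with region 7 next at 133, 127 and 142 CPM. The log2 fold change in region 13 was 1.52 ± 0.14 (edgeR adjusted p = 3.9e-11), the smallest of the 9 calls, and region 13 held 4.21%, 12.0% and 14.2% of its UMIs. Region 13 was thus the highest region for Gata2 in all 3 libraries without holding most of its transcripts.

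Related genes and partners were examined in region 13. Of 28 family members listed, 10 were tested, 4 were called higher and none lower. Rhox5 and Rhox1, homeobox genes of the same X-linked cluster, stood 5.94 ± 0.17 and 6.42 ± 0.45 above the other regions, and Tfap2a, a relative of Tfap2c, 6.09 ± 0.39, from a mean of 18.0 CPM in region 13. Rhox5 averaged 322 CPM in region 13 and 401 CPM in region 14. Hand2, the relative of Hand1 expressed in the decidua, averaged 1007 CPM in region 9 and 217 CPM in region 13, and was not called (-0.60).

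Of 9 listed partners of basic helix-loop-helix factors, 6 were called lower in region 13, beside 11.8% of all genes tested, and none higher. Among them were Id3 (-2.58 ± 0.22), Id1 (-1.82) and Id2 (-1.73), which bind such factors and keep them from DNA, and Tcf3 (-1.22), a partner that does bind DNA. Of 24 further regulators of cone and giant cells, 23 were tested and 14 were called higher and none lower. They included Phlda2 (5.54 ± 0.21), an imprinted gene that limits placental growth, Cdkn1c (4.10), a cell cycle inhibitor, and the transcriptional regulators Cited2 (2.56) and Ets2 (2.08). Of 18 stem cell and chorion genes, 14 were tested, with 9 higher and 1 lower, and of 28 further giant cell genes 19 were tested, with 17 higher and none lower.

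Genes were also ranked by how closely their level across regions followed that of each member. Pla2g5 and H19 were nearest to both Hand1 (0.95 and 0.95) and Plac1 (0.96 and 0.95). Adm (0.97), Cts7 (0.97) and Prl3d1 (0.97) were nearest to Plet1, Prl3d1 (0.96) and Pla2g5 (0.96) to Rhox6, and Igf2bp1 (0.94) to Rhox9. Tfap2c was nearest to Ada (0.93) and Tpbpa to Sbsn (0.89) and Nceh1 (0.89). Ascl2 and Gata2 had no close neighbour, with Chchd5 (0.63) and Anxa7 (0.75) the nearest. These are mean Pearson correlations of log2(CPM + 1) within libraries among 9812 genes, and the regions of a library share its depth.

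To separate giant cell from cone signal, spots were sorted by marker genes outside the 10. A giant list spot had a rate of the 4 lactogen genes of at least 20% of that of the 10 richest spots of its library, and a cone list spot passed the same rule, each with at least 2 UMIs of the list, for a list of cone markers that included Tpbpb and 5 Ceacam genes. The 5 Ceacam genes had no UMI and Tpbpb at most 12 per library, so the cone list rested on its few other genes. Its thresholds were 1.06, 0.96 and 1.97 UMIs per 10000 in replicates 1,2, 3 and 4, against 15.1, 6.84 and 7.47 for the giant list. A cone list spot could thus pass on as few as 2 UMIs. Median depth was 13391, 24744 and 35134 UMIs in spots of the cone list alone and 7424, 30774 and 32860 in those of the giant list alone. The giant list alone was passed by 30, 11 and 24 spots of replicates 1,2, 3 and 4, the cone list alone by 91, 63 and 53, and both by 10, 26 and 18. Region 13 held 63.3%, 81.8% and 70.8% of the giant list spots. It held 3.30%, 3.17% and 24.5% of the cone list spots, while region 9 held 34.1%, 15.9% and 22.6%, region 2 held 25.3%, 28.6% and 37.7%, and region 10 held 34.9% in replicate 3. Most cone list spots thus lay outside region 13 and in decidual regions: Prl8a2 stood at 86762, 24349 and 25336 CPM in them, against 41274, 9799 and 20549 CPM in giant list spots.

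Against spots that passed neither list, 8 of the 10 genes were higher in giant list spots (10% of 9303 genes tested were) and 8 in cone list spots (7.55%). Gata3 was lower in both (-1.204 and -1.03), beside 12% and 6.4% of genes. Tpbpa rose by 2.48 ± 0.28 in giant list spots and 3.72 ± 0.23 in cone list spots, and Hand1 by 6.56 ± 0.67 and 4.72 ± 0.63. Ascl2 was not called in giant list spots (0.67, edgeR adjusted p = 0.717) and rose by 4.01 ± 0.54 in cone list spots.

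Compared directly, giant list spots had more of 5 members and less of 2. Rhox9, Rhox6, Plet1, Plac1 and Tfap2c were higher, beside 3.07% of the 9303 genes tested, and Ascl2 and Tpbpa were lower, beside 4.31%. The median log2 difference of the 10 members was 1.59, against -0.07 over all genes tested. The calls moved with the libraries. Without replicate 1,2 only Rhox9 remained called, without replicate 3 Plet1 and Rhox9, and without replicate 4 the 5 higher members, Hand1 and, on the lower side, Tpbpa. Rhox9 was thus the 1 member called with each library left out in turn.

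Rhox9 was measured at 99.7, 137 and 49.1 CPM in giant list spots of replicates 1,2, 3 and 4 and at 4.14, 10.8 and 11.7 CPM in cone list spots. Its log2 difference was 3.06 ± 0.38 (edgeR adjusted p = 0.000658, and 4.68e-19 to 0.231 over 15 alternatives). The lowest giant value lay above the highest cone value. Rhox6 stood at 178, 184 and 78.1 CPM against 5.80, 16.9 and 32.9 CPM (2.59 ± 0.44, edgeR adjusted p = 0.00366), without overlap. Plet1 stood at 1158, 1165 and 1066 CPM against 87.0, 153 and 486 CPM (2.27 ± 0.34, edgeR adjusted p = 0.00203), again without overlap.

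Tfap2c was measured at 208, 231 and 237 CPM in giant list spots and at 43.1, 67.5 and 134 CPM in cone list spots (1.35 ± 0.26, edgeR adjusted p = 0.00711). Plac1 was at 299, 418 and 271 CPM against 8.29, 37.1 and 251 CPM (2.09 ± 0.59, edgeR adjusted p = 0.0408). In replicate 4 the Plac1 values of the 2 classes were close, and their exact 95% Poisson intervals, 236 to 310 CPM and 228 to 275 CPM, overlapped. Hand1 showed the same pattern, at 152, 225 and 180 CPM against 2.49, 33.8 and 156 CPM, and its difference of 1.84 ± 0.60 was not called (edgeR adjusted p = 0.0661). Replicate 4 had the largest share of cone list spots in region 13. Spots that passed both lists held Hand1 at 219, 756 and 487 CPM and Plac1 at 447, 800 and 754 CPM. These levels were higher than in either class of the same library.

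Tpbpa was lower in giant list spots of every library, at 47.7, 18.7 and 90.7 CPM against 65.5, 77.7 and 184 CPM (-1.24 ± 0.26, edgeR adjusted p = 0.0115). The ranges of the classes overlapped, since replicate 4 was high in both. In replicate 1,2 the giant value came from 11 UMIs, and its exact 95% Poisson interval (23.8 to 85.3 CPM) covered that of the cone value (51.8 to 81.6 CPM). Ascl2 was counted 0, 0 and 6 times in giant list spots, which is 7.56 CPM in replicate 4 and allows up to 13.01 and 9.37 CPM in the others, and 0, 19 and 158 times in cone list spots, or 0, 12.8 and 88.1 CPM (-3.34 ± 0.89, edgeR adjusted p = 0.0320). Replicate 1,2 had none in either class and so carried no Ascl2 difference. Spots that passed both lists were on neither side of this difference. They held Ascl2 at 59.3 and 132 CPM in replicates 3 and 4, above the cone list spots. In replicate 1,2 they held none, which allows up to 26.3 CPM. Low Ascl2 in giant list spots thus does not extend to all spots rich in lactogen RNA. Gata2 (0.41) and Gata3 (-0.17) were not called.

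**Figure D3:**
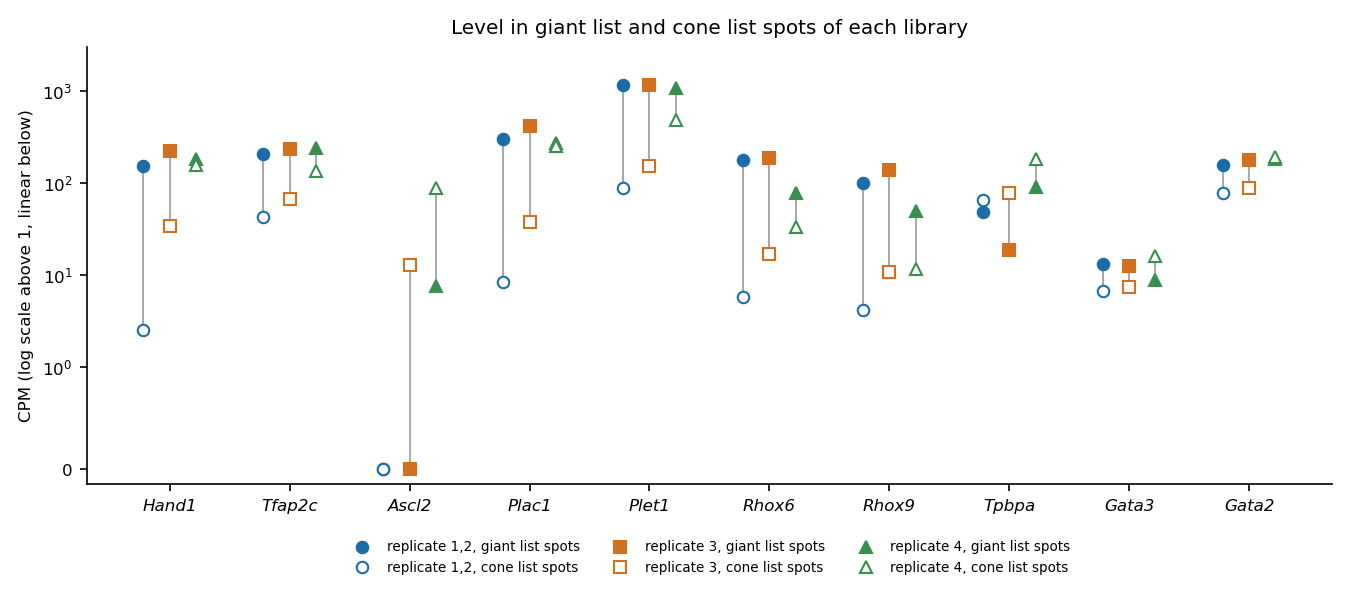
Level (CPM, log scale above 1 and linear below) of each gene in giant list spots (filled) and cone list spots (open) of the 3 libraries, with a line joining the classes of a library. Rhox6, Rhox9 and Plet1 are higher in giant list spots in all 3 libraries and Tpbpa is lower, while Hand1 and Plac1 are close together in replicate 4.

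Other trophoblast genes were compared between the same spots. Of 28 further giant cell genes, 19 were tested, and 7 were higher and 2 lower in giant than in cone list spots: Prl7a1 (4.09), Prl5a1 (2.70), Prl2c3 (5.39) and Cts8 (1.88), prolactin-family hormones and a cathepsin, were among the higher, and Prl7c1 (-3.38) and Prl7d1 (-2.13) were the lower. Of 24 regulators, 20 were tested, with Cited2 (1.30), Socs3 (1.54) and Fosl1 (1.13) higher and Hopx (-1.36) lower. Of 10 simple epithelium genes 3 were higher, the keratins Krt7 (1.76), Krt8 (1.66) and Krt18 (1.23), and Perp (-1.43) was lower. Among all called genes of sufficient level with the same sign in every library, the largest rises were those of Pate11 (5.13), Nppb (4.65), Jaml (4.21), Prl7a1 (4.09) and Tmem229b (3.50). In replicate 3 the sign of Pate11 rests on 3.12 CPM in giant list spots against 0 in cone list spots. That level is below the limit of 3 counts, 9.37 CPM. Col6a2 fell by 4.39, and Efemp1, Mrvi1, Thsd4 and Serpinb1a had no UMI in giant list spots and were at least 3.70-, 2.60-, 2.40- and 2.10-fold lower there, taking 3 counts over all giant list spots as the limit.

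Markers of other tissues moved with this contrast too. Of 15 decidual genes 8 were lower in giant list spots and none higher, among them Hand2 (-1.55), Angpt4 (-1.66), Bmp2 (-1.84) and Dio3 (-3.03), and the list summed to 18430 to 51419 CPM there against 40146 to 113599 CPM in cone list spots. Of 11 visceral endoderm genes tested 5 were higher and none lower, with Apoa1 (2.95) and Afp (3.85) among them. That list summed to 1478, 24.98 and 1231 CPM in giant list spots and 72.1, 130 and 368 CPM in cone list spots. Of 5 globin and red cell genes 3 were higher, Hba-a1 (2.34) first, with sums of 6273 to 9822 CPM against 461 to 5223 CPM. The part of these tissues in the members' differences was not tested.

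With the 13 Psg genes as the cone list, Hand1 (3.62 ± 0.56), Plac1 (1.41), Rhox6 (2.31) and Rhox9 (2.61) were higher in giant list spots, beside 8.46% of the 6644 genes tested, and Tpbpa was lower (-3.63 ± 0.49), beside 9.2%. Tfap2c turned to -0.20 (edgeR adjusted p = 0.577, and 3.95e-07 to 0.988 over 15 alternatives). The Psg genes are abundant pregnancy-specific glycoproteins of the placenta, and they were not a cone signal alone: they summed to 1296, 537 and 1735 CPM in the giant list spots of the first rule against 148, 140 and 390 CPM in its cone list spots. With 40% in place of 20% of the richest spots as the threshold, 0 of the 10 members and 12 genes in all were called. Within region 13 alone Ascl2 (-5.33) and Tpbpa (-2.22) were called lower, beside 0.686% of genes, but there only replicate 4 had a cone class, of 13 spots, and this lone sum is assumed to vary like the others.

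**Figure D4:**
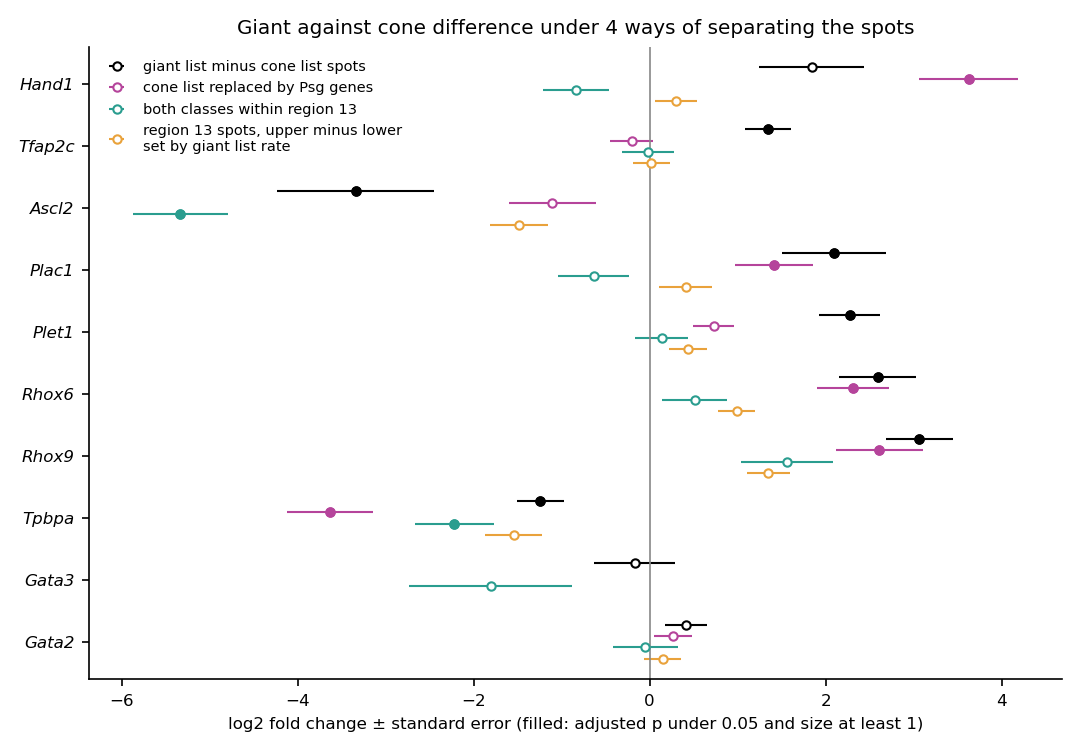
Log2 difference ± standard error of each gene between giant and cone spots under 4 ways of separating them; filled points passed the test, and Gata3 has a point in 2 of the 4. Rhox9 and Rhox6 lie above 0 and Tpbpa and Ascl2 below 0 in all 4, whereas Hand1, Plac1, Tfap2c and Gata2 change side; within region 13 the cone class came from replicate 4 alone.

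Since most cone list spots lay outside region 13, the spots of region 13 were also divided within each library into an upper set (20, 20 and 25 spots) and a lower set (19, 20 and 25 spots) by their rate of the 4 lactogen genes. Of the members 9 could be tested and 0 were called by edgeR, beside 4 of 6193 genes (0.0646%). At an unadjusted p under 0.05 there were 4 (Rhox9, Rhox6, Tpbpa and Ascl2), beside 5.85% of genes, and DESeq2 called 0. Rhox9, Rhox6 and Plet1 had the same order in all 3 libraries. Rhox9 was measured at 121, 225 and 54.5 CPM in the upper set and 44.8, 91.3 and 18.4 CPM in the lower (1.35 ± 0.24, edgeR adjusted p = 0.0609). Rhox6 stood at 268, 324 and 101 CPM against 110, 175 and 47.6 CPM (0.99 ± 0.21, edgeR adjusted p = 0.110).

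Tpbpa was lower in the upper set in 2 libraries, at 13.7 and 111 CPM in the upper set against 58.4 and 373 CPM in the lower in replicates 3 and 4, and stood at 54.8 against 39.8 CPM in replicate 1,2, from 10 and 8 UMIs (-1.55 ± 0.32, edgeR adjusted p = 0.110). Ascl2 stood at 32.6 and 59.0 CPM against 52.9 and 215 CPM in replicates 3 and 4 and was not counted in replicate 1,2 (-1.48 ± 0.33, edgeR adjusted p = 0.147). Without replicate 1,2, Rhox9 was called higher and Ascl2 and Tpbpa lower, and without replicate 4 Rhox9 was the 1 member called. Hand1 (219, 581 and 392 CPM against 84.6, 621 and 319 CPM), Tfap2c and Plac1 had no common direction over the libraries. Plet1 was higher in the upper set of each, at 1561, 1874 and 1420.4 CPM against 677, 1470 and 1345 CPM, with a difference of 0.44 ± 0.22 (edgeR adjusted p = 0.856).

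**Figure D5:**
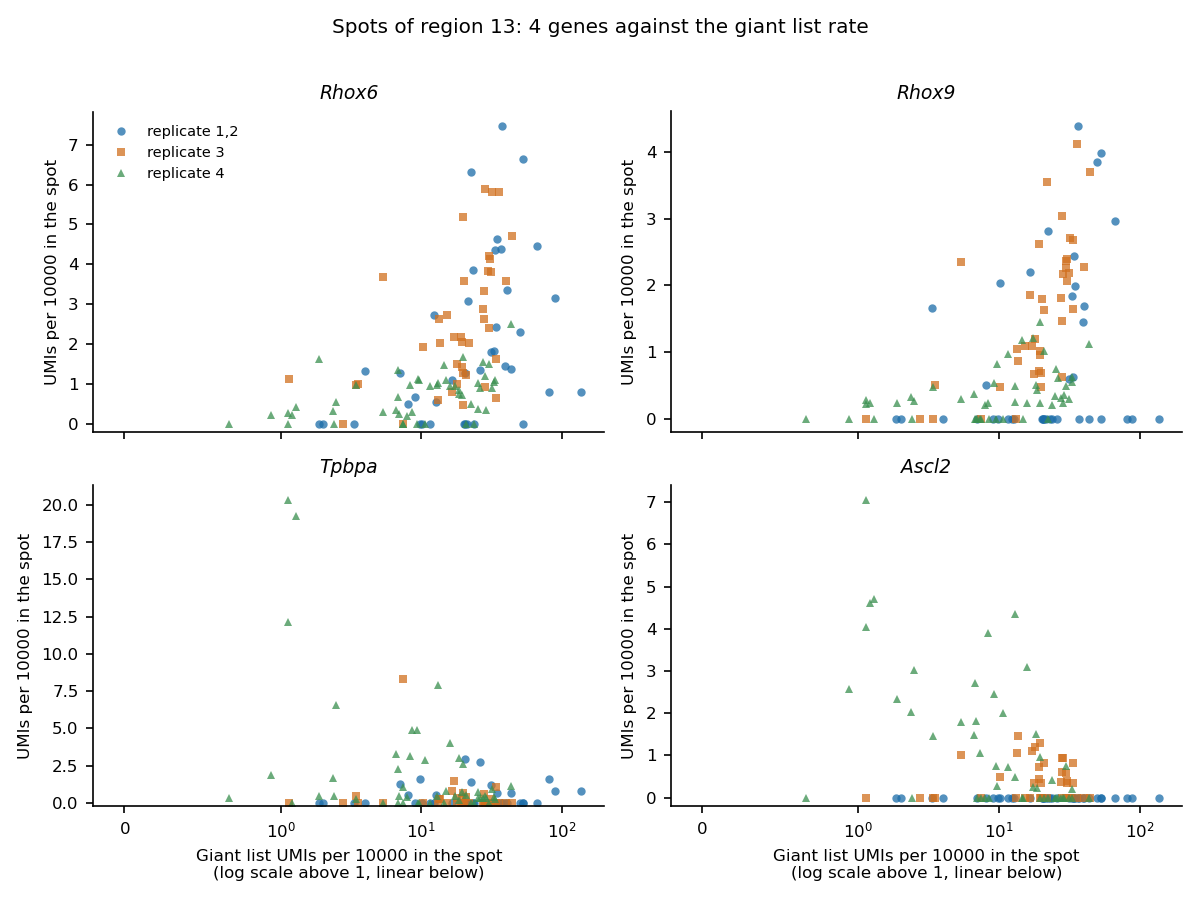
Rate of Rhox6, Rhox9, Tpbpa and Ascl2 (UMIs per 10000 UMIs of the spot) against the rate of the 4 lactogen genes (log scale above 1, linear below) in the spots of region 13; each point is a spot of 1 of 3 libraries. The highest Tpbpa and Ascl2 rates are in spots of replicate 4, and replicate 1,2 has no Ascl2 UMI in region 13.

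Spots of region 13, thinned to 3000 UMIs each, gave weak rank correlations between members. Hand1 went with Plac1 (mean Spearman rho 0.33 over the libraries, 0.20 to 0.42) and Plet1 (0.33, 0.15 to 0.44), and Rhox6 with the giant list (0.36, 0.26 to 0.48). Plac1 ran against the Psg genes (-0.34, -0.39 to -0.32) and Tpbpa went with them (0.28, 0.27 to 0.29). With the cone list Tpbpa had little correlation (0.064, -0.011 to 0.14). The Psg genes and the cone list ran against each other (-0.30, -0.44 to -0.056). Between Hand1 and Tfap2c rho was -0.011. Spots of a library share depth and sections, so these values are a description.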

How the data were processed

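The authors deposited whole-number UMI counts for each gene in each spot. Nothing was normalized, and Space Ranger 1.2.2 made the matrices, per the file headers. Cell Ranger and mm10 stand in the submitters' processing notes, while alignment settings and the annotation used are not given there. GENCODE M21 held 32158 of the 32285 gene IDs. Of the deposited spots 38, 1 and 0 had under 1000 UMIs and were left out. No column was unused (0), no doublet caller was run, and spot positions were not used here. The members and lists were chosen with earlier results of these data known.

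Regions were Leiden clusters (resolution 0.6, 20 components, 15 neighbours, 10000 per spot) of the 1500 most variable genes of a random set of 16142, and other genes and list genes were tested. Counts were summed per library and region (at least 20 spots) or spot class (at least 5 spots) and tested with edgeR's quasi-likelihood test, with TMM scaling, low count filtering, library as a block and Benjamini-Hochberg adjustment over all genes tested. The scripts were tested on simulated data. Named genes are all members, the 3 genes most like each, up to 5 called genes in each direction with the largest change, one sign over all libraries and an average log2 CPM of 3 or more, and from each list up to 4 genes with the smallest p and the 2 most counted; some of these are not reported here. Levels of named genes in other regions were chosen after their values were seen. The division of region 13 by lactogen rate and the comparison within region 13 alone were added after seeing the data. The lactogens Prl3d1 and Prl3d2 share 70.9% of 50-base stretches at their ends and were used as a sum. Alternatives changed the scaling, filter, tool, block, thresholds, lists, clustering, reference and libraries. Software was Python 3.11.15, scikit-learn 1.9.0, leidenalg 0.10.2, R 4.3.3, edgeR 4.0.16 and DESeq2 1.42.0.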

Additional observations from a re-analysis of the deposited data

How the results depend on the processing

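There are 3 libraries of 1 group, and leaving out a library leaves 2. Low counts limit Rhox9 (52, 219 and 113 UMIs) and Ascl2 (15, 97 and 334). Spot classes, sets and regions were compared within the same libraries, so the fits are paired by library, and without that block ("no replicate block") 4 members in place of 7 were called between giant and cone list spots, and 0 genes in place of 4 within region 13. All alternatives listed were run. Over 960 values of single genes, 41 changed sign, and 819 kept their direction and side of the threshold. The cause of the changes below was not tested.

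Between giant and cone list spots, 687 genes were called, against 1173 with the Psg genes as cone list, 1082 with no filter, 1315 and 12 with thresholds of 10% and 40%, 200 within region 13 and 4 between its upper and lower sets, and 67, 204 and 1109 without replicates 1,2, 3 and 4. Of the members 7 were called, against 3 with Tpbpa and Ascl2 as cone list (which left 8 members to call), 0 with the 40% threshold, 2 within region 13, 0 between its sets, and 1 to 7 with a library left out. Tfap2c became -0.20 with the Psg genes and Gata2 -0.033 at 40%. Within region 13 Hand1 became -0.83, Tfap2c -0.023, Plac1 -0.64 and Gata2 -0.049. Without replicate 4 Gata3 became 0.59.

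Against spots of neither list, within region 13, 217 genes and 4 members were called for the giant list and 681 genes and 1 member for the cone list, and 2104 genes with no filter for the cone list. For the giant list, Ascl2 became -0.33 with DESeq2 and 0.99, 0.88 and -5.94 without replicates 1,2, 3 and 4, and within region 13 Tfap2c became -0.36, Ascl2 -4.89, Tpbpa -2.51 and Gata3 0.050. For the cone list within region 13, Tfap2c became -0.34, Tpbpa -0.29 and Gata3 1.85. The fits within region 13 tested 5831 genes. The cone class there came from 13 spots of replicate 4 alone, and the neither class from 9 and 5 spots of replicates 1,2 and 4. The values for the cone list there thus rest on a lone sum, which is assumed to vary like the others.

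Between the sets of region 13, 4 genes became 15 with DESeq2, 62 with no filter, 9 with relative log expression scaling and 25, 4 and 68 without replicates 1,2, 3 and 4, and 0 members became 4 with no filter and 0 to 3 with a library left out. With a library left out Tfap2c ran from -0.049 to 0.13, being -0.012 without replicate 1,2, and Plac1 was -0.032 without replicate 1,2. Over regions, 9 members were lower in at least 1 region, and 5 to 8 with a library left out.

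With pooled other spots as the reference, Gata3 became -0.39 in region 13. In region 9, 2 members in place of 5 were called higher, and Plac1 became -2.29, Plet1 -0.70, Rhox6 -0.49 and Rhox9 -0.57. In region 2, 0 in place of 7 were, and Hand1 became -1.24, Ascl2 -0.66, Plac1 -0.75, Rhox6 -0.43, Rhox9 -0.52 and Gata3 -0.62. In region 14 Tpbpa became -1.10. In region 9 Hand1 became 0.17 at resolution 1.0 and -1.02 to 0.54 with a library left out, and Gata2 -0.15 to 0.32. In region 2, with regions from the other set of genes, Ascl2 became -0.56 and Gata3 -0.15, and at resolution 1.0 Ascl2 became -0.42. With the other set of genes and at resolution 0.3, the cluster that best matched region 14 was also the best match of region 13. The overlap (spots in both over spots in either) was 0.28 and 0.29 for region 14 and 0.67 and 0.71 for region 13. In that cluster, which does not stand for region 14 alone, Gata3 was at 0.40 and Gata2 at 1.26 with the other set of genes, and at 0.10 and 1.22 at resolution 0.3. Between TMM and relative log expression scaling the all-gene median shifted by -0.15 in region 12 and by under 0.1 in the other contrasts.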
